A study of Mus musculus with 9 samples.

Results

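The 8 genes of red cell formation followed here comprised 7 transcription factors and cofactors (Gata1, Klf1, Nfe2, Tal1, Zfpm1, Gfi1b and Lmo2) and Epor, the receptor of the hormone erythropoietin. They were chosen by name, through the RefSeq accession of the array probe, and all 8 were among the 14253 genes that could be tested. Each was read by 1 probe of the array. The samples came from 3 female Balb/c athymic mice, animals without a thymus, numbered 832, 833 and 834. From each mouse came a fraction enriched in inflammatory cells of the tumour 10 days after Hepa1-6 cells, a mouse hepatoma line, had been placed under the skin (TIC), blood of the same day (day 10 blood), and blood taken before inoculation (day 0 blood). The 3 groups thus hold 1 array of every mouse, 9 arrays in all, and each sample in Cy5 was set against the same untreated female C57Bl/6 blood RNA in Cy3, with no dye swap. The TIC samples carry "blood" as their source name and tumour-infiltrating cells as their tissue, and were grouped by tissue label and title. RNA of the TIC fractions was extracted with a different kit from that used for blood, so kit and tissue cannot be told apart.

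GATA1 is the zinc-finger factor at the centre of the red cell programme, and FOG1 (encoded by Zfpm1) is its partner. On many erythroid genes it sits in a complex with TAL1, LMO2 and LDB1, while KLF1 binds CACCC boxes, GFI1B represses, and NF-E2 binds with a small MAF protein at the globin locus. The factors other than KLF1 also serve megakaryocytes, and red cells leaving the marrow still carry part of the erythroid messenger RNA into blood.

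The stretches before the start sites of Gata1, Klf1, Gfi1b and Epor show the letters these factors are known to bind. These genes were taken to represent a factor at the head of the complex, a CACCC-binding factor, a repressor and the receptor. The sequences are the 250 bases before the RefSeq start on GRCm38.p6, written 5′ to 3′ on the strand of the gene. Capitals mark GATA matches (AGATAA or AGATAG, and likewise TGATAA or TGATAG) and CACCC matches on either strand. For Gata1 the stretch is chrX:7967911-7968160 on the minus strand, for Klf1 chr8:84901732-84901981 on the plus strand, for Gfi1b chr2:28621983-28622232 on the minus strand and for Epor chr9:21963577-21963826 on the minus strand.
Gata1: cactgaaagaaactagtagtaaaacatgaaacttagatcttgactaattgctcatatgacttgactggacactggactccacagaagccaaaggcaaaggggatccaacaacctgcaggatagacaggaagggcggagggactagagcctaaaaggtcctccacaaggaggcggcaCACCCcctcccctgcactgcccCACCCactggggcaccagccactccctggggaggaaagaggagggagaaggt
Klf1: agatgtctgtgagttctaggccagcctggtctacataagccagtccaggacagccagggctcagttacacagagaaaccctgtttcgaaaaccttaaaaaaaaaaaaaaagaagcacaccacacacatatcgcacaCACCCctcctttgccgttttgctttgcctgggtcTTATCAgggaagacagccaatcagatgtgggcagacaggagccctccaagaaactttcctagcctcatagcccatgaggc
Gfi1b: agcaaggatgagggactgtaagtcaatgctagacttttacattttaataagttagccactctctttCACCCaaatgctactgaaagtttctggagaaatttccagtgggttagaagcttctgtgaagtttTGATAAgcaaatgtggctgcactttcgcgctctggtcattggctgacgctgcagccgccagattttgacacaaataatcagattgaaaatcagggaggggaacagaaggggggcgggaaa
Epor: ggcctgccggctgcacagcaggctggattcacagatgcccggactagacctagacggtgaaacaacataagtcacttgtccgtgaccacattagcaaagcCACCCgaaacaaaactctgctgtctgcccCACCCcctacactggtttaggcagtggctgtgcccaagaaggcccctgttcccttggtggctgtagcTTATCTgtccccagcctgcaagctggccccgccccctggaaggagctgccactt
In these 250 bases Klf1, Gfi1b and Epor each held 1 GATA match, which began 80, 120 and 54 bases before the start. The stretch of Gata1 held no GATA match and 2 CACCC matches, 74 and 52 bases before its start. Of all 8 genes, 6 had an entry, and Tal1 had 2, which gave 7 stretches. GATA letters were in 4 of these 7 and CACCC in 6, against 26.5% and 52% of 32851 promoters of this length. The E-box CANNTG was in 4 of the 7, against 66.2% of all promoters, and the core TGANTCA of NF-E2 and AP-1 sites in none, against 6.75%. The CACCC match of Gfi1b shared its last base with an E-box.

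Sample signal differed between the groups as a whole. Spots well above background in Cy5 made up 48.2% to 55.1% of spots on the TIC arrays, 14.2% to 21.0% on the day 10 blood arrays and 24.3% to 36.9% on the day 0 blood arrays, while in the Cy3 reference the share was 40.2% to 50.4% on all arrays. The TIC array of mouse 833 stood apart from those of mice 832 and 834, with correlations across genes of 0.88 and 0.90, against 0.99 between the other two. The TIC array of mouse 832 was alone on slide 1 and scanned on a day of its own, the other 2 TIC arrays shared slide 2 with the day 0 blood of mice 832 and 833, and slide 3 held all day 10 blood and the day 0 blood of mouse 834. All 8 genes were well above background in the Cy3 reference on 9 of 9 arrays, and the spread of that channel over arrays was 0.11 to 0.38 on the log2 scale (SD). Values below are log2 ratios of sample over reference blood, in the order of mice 832, 833 and 834, or differences between group means of these ratios with their SE.

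In the TIC fractions 7 of the 8 genes had lower ratios than in day 10 blood, and the same 7 had lower ratios than in day 0 blood; with arrays only centred on their median, without loess, the difference of Lmo2 turned to 0.50 and 0.29. Nfe2 and Zfpm1 differed by -5.04 and -4.63 from day 10 blood, Lmo2 by -3.46, and Gata1, Gfi1b and Klf1 by -1.77, -1.23 and -0.77. The order of these sizes depends on the scaling. With the deposited log ratio Nfe2 and Zfpm1 were at -6.28 and -5.53, and Klf1, Gfi1b, Lmo2 and Gata1 at -4.98, -4.19, -4.03 and -3.55. Tal1 was not well above background in any TIC fraction, so the size of its difference is uncertain. Epor did not pass the test (0.34 ± 0.36, SE). By limma with Benjamini-Hochberg adjustment over all genes, 67.6% of the 14253 genes passed the threshold of 0.05 between the TIC fraction and day 10 blood and 33.1% were lower. Against day 0 blood 65.4% passed and 33.6% were lower. The ranges of TIC fractions and day 10 blood did not overlap, TIC being lower, for 7 of the 8 genes and for 34.9% of all genes. The median difference of the 8 genes was -2.61 against day 10 blood, where all genes had 0.07. Against day 0 blood it was -2.12, where all genes had 0.01. With Tal1 taken from the Cy5 channel alone the first was -2.46 and the second the same. With median centring the medians of the 8 genes were -0.19 and -0.60, and with the deposited log ratio -4.59 and -3.97. Both comparisons use the same TIC arrays, so the 2 sets of values are not independent.

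**Figure D1:**
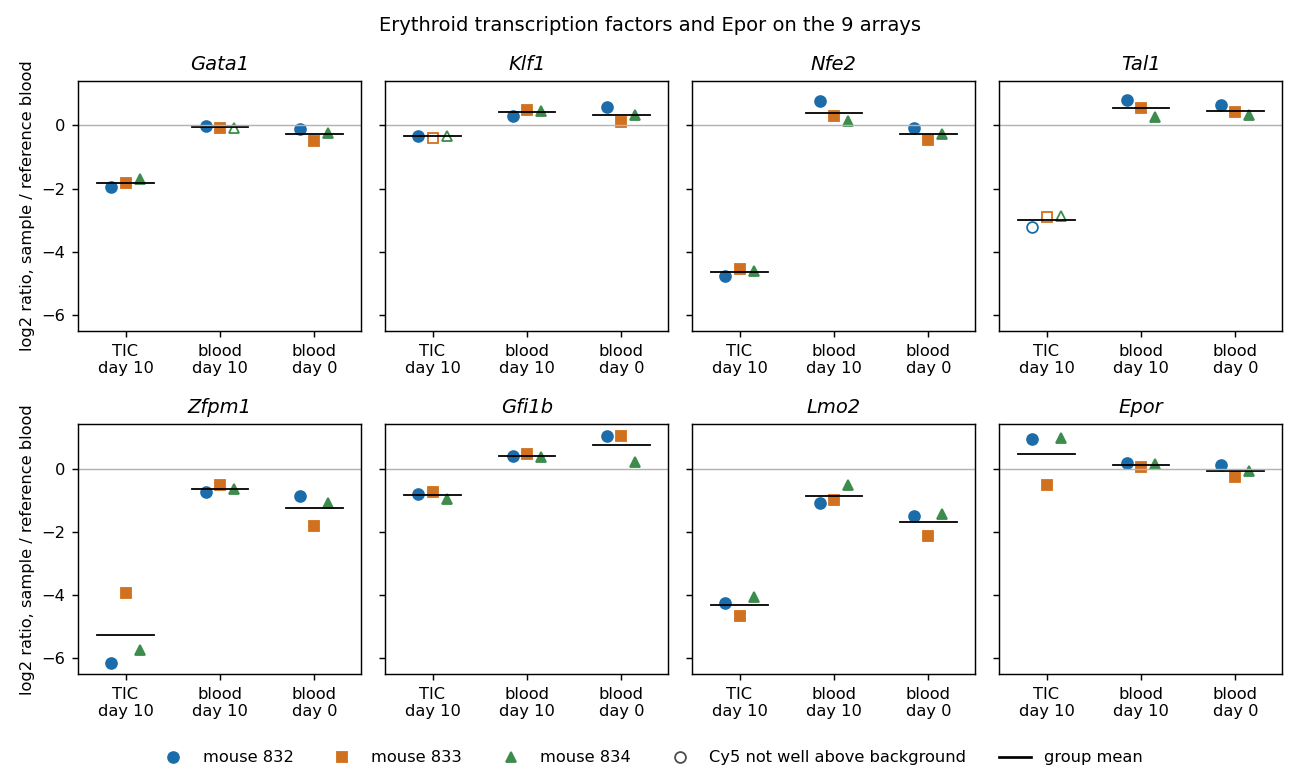
Log2 ratio of sample over reference blood (vertical axis) of each of the 8 genes on the 9 arrays, with the TIC fraction left of day 10 blood and day 0 blood, symbols for the 3 mice, open symbols where Cy5 was not well above background, and a bar at the group mean. The TIC fractions lie below both bloods for 7 genes in this normalization (with median centring Lmo2 does not), and the TIC points of Epor lie apart, at 0.93, -0.53 and 0.98.

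The GATA1, TAL1 and LMO2 transcripts come first as parts of 1 DNA-bound complex. The Gata1 probe (mm8 chrX:7116682-7116741, minus strand) was printed 10 times on the array. Its ratios were -1.95, -1.83 and -1.70 in the TIC fractions, against -0.033, -0.072 and -0.076 in day 10 blood and -0.11, -0.50 and -0.26 in day 0 blood. All 3 TIC values lay below all 6 blood values, and the lowest day 10 value lay above the highest day 0 value. The difference was -1.77 ± 0.12 between the TIC fraction and day 10 blood (limma adjusted p = 5.68e-06) and -1.54 ± 0.12 between the TIC fraction and day 0 blood (adjusted p = 1.66e-05). With median centring neither passed, at -0.025 (adjusted p = 0.896) and -0.25 (adjusted p = 0.199). With the deposited log ratio the differences were larger, at -3.55 and -3.21. The spread of the repeated spots within an array, a technical measure, was 0.05 to 0.21 (SD). On the day 10 array of mouse 834 only 2 of the 10 spots were well above background in Cy5.

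Tal1 encodes the basic helix-loop-helix factor of the complex, and its probe lies at mm8 chr4:114569550-114569610 on the plus strand. Its ratios were -3.22, -2.91 and -2.86 in the TIC fractions, against 0.79, 0.56 and 0.25 in day 10 blood and 0.64, 0.41 and 0.31 in day 0 blood. No TIC array had Tal1 well above background in Cy5, while all 6 blood arrays did, so the size of its difference is uncertain. It was estimated on the Cy5 channel alone (loess, then Aquantile), which without a dye swap is open to dye bias. The lowest signal well above background on each TIC array did not exceed the fitted level of Tal1, so it set no bound. On that channel the fitted level was 8.89-fold lower in the TIC fraction than in day 10 blood and 8.92-fold lower than in day 0 blood. With median centring the differences of ratios were -1.18 and -1.74, which rest on the same dim signal. The limma adjusted p was 3.60e-06 and 5.60e-06 on the Cy5 channel, and 1.28e-06 and 2.16e-06 in the fit of ratios. Both bloods overlapped for this gene.

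Lmo2, the LIM-only protein that bridges TAL1 and GATA1 in the complex, had a probe that spans mm8 chr2:103777023-103781736 on the plus strand, 4714 bases, and so is split in the genome. Its ratios were -4.26, -4.65 and -4.05 in the TIC fractions, against -1.08, -0.998 and -0.52 in day 10 blood and -1.49, -2.12 and -1.43 in day 0 blood. Every TIC value was below every blood value, and every day 10 value above every day 0 value. The TIC fraction differed by -3.46 ± 0.24 from day 10 blood (limma adjusted p = 5.61e-06) and by -2.64 ± 0.24 from day 0 blood (adjusted p = 3.21e-05). With median centring these differences turned to 0.50 (adjusted p = 0.270) and 0.29 (adjusted p = 0.516). Unlike Tal1, Lmo2 was well above background in Cy5 on all 9 arrays.

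Zfpm1 and Gfi1b encode the cofactor FOG1 and a zinc-finger repressor that GATA1 works with. Zfpm1 (probe at mm8 chr8:125223243-125223302, plus strand) had ratios of -6.15, -3.92 and -5.72 in the TIC fractions, against -0.73, -0.52 and -0.66 in day 10 blood and -0.86, -1.81 and -1.09 in day 0 blood. The TIC fraction of mouse 833 was the highest of its group, yet it lay below all blood arrays. The differences were -4.63 ± 0.52 for the TIC fraction against day 10 blood (limma adjusted p = 7.32e-05) and -4.01 ± 0.52 against day 0 blood (adjusted p = 0.000209), and without that array they were -5.30 and -4.68. With median centring neither passed, at -0.26 (adjusted p = 0.630) and -0.77 (adjusted p = 0.174).

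Gfi1b (probe at mm8 chr2:28431471-28431530, minus strand) had ratios of -0.80, -0.73 and -0.96 in the TIC fractions, against 0.40, 0.46 and 0.35 in day 10 blood and 1.04, 1.02 and 0.20 in day 0 blood. The TIC values were below all others, and the day 0 array of mouse 834, which shared its slide with the day 10 arrays, was far below the other day 0 arrays. The TIC fraction differed by -1.23 ± 0.21 from day 10 blood (limma adjusted p = 0.00096) and by -1.59 ± 0.21 from day 0 blood (adjusted p = 0.000255). With median centring the first was -0.12 and did not pass (adjusted p = 0.701), and the second was -0.68 (adjusted p = 0.0476). With the deposited log ratio the differences of Gfi1b were larger, at -4.19 and -4.02. Of the 8 genes it was the only one with a day 10 mean below its day 0 mean, a difference of -0.35 ± 0.21 that did not pass the test and that was above 0 with the deposited log ratio (0.17) and with Cy5 alone at its 75th percentile (0.28), but not with Cy5 alone after loess and Aquantile (-0.40).

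Klf1, the erythroid Krüppel-like factor that activates adult beta-globin, was dim (probe at mm8 chr8:87795087-87795146, plus strand). Its ratios were -0.32, -0.40 and -0.33 in the TIC fractions, against 0.31, 0.50 and 0.44 in day 10 blood and 0.58, 0.11 and 0.33 in day 0 blood. It was well above background in Cy5 on 1 of 3 TIC arrays, that of mouse 832, and on all blood arrays. The difference was -0.77 ± 0.13 between the TIC fraction and day 10 blood (limma adjusted p = 0.000896) and -0.69 ± 0.13 between the TIC fraction and day 0 blood (adjusted p = 0.00175). Its reference signal was the lowest of the 8 genes, 25.5 to 33.1 intensity units above local background, and the offset of 50 added to each channel narrows ratios at such levels. With the deposited log ratio, which carries no such offset, the difference from day 10 blood was -4.98. With slide as a term in the fit, which leaves the TIC array of mouse 832 without weight, it was -0.80 (adjusted p = 0.071).

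Nfe2 encodes the large subunit of NF-E2, a factor of both the globin locus and platelet formation, and its probe lies at mm8 chr15:103076441-103076500 on the minus strand. Its ratios were -4.77, -4.55 and -4.59 in the TIC fractions, against 0.77, 0.30 and 0.14 in day 10 blood and -0.10, -0.45 and -0.27 in day 0 blood. None of the 3 groups overlapped, with day 10 blood at the top, day 0 blood next and the TIC fractions far below. The TIC fraction differed by -5.04 ± 0.17 from day 10 blood (limma adjusted p = 5.32e-07) and by -4.36 ± 0.17 from day 0 blood (adjusted p = 1.29e-06). Among all genes the first of these differences lay at percentile 1.75, the lowest place of the 8 genes in this normalization. That place depends on the scaling. With the deposited log ratio Nfe2 was at -6.28 and Tal1, dim in the TIC fraction, lower at -8.33. With median centring Nfe2 was at -1.01, still past the test, and Tal1 at -1.18.

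Epor, which signals through JAK2 and STAT5 and keeps red cell precursors alive, was the exception (probe at mm8 chr9:21709380-21709439, minus strand). Its ratios were 0.93, -0.53 and 0.98 in the TIC fractions, against 0.16, 0.05 and 0.15 in day 10 blood and 0.10, -0.27 and -0.08 in day 0 blood. The TIC fractions of mice 832 and 834 lay above all 6 blood arrays and that of mouse 833 below all of them. The differences were 0.34 ± 0.36 between the TIC fraction and day 10 blood (limma adjusted p = 0.416) and 0.55 ± 0.36 between the TIC fraction and day 0 blood (adjusted p = 0.205), neither past the threshold. Without the TIC array of mouse 833 they were 0.84 (adjusted p = 0.000157) and 1.04 (adjusted p = 4.16e-05). With the deposited log ratio the difference from day 0 blood was 1.29 (adjusted p = 0.0337) and with Cy5 alone at its 75th percentile 1.38 (adjusted p = 0.0402), while that from day 10 blood was 0.59 and 0.64 and did not pass. With median centring both passed, at 2.68 against day 10 blood (adjusted p = 0.00389) and 2.57 against day 0 blood (adjusted p = 0.00527). In that setting most genes were called higher, 10273 and 9428 of 14253, and the medians of all genes were 1.38 and 1.16.

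**Figure D2:**
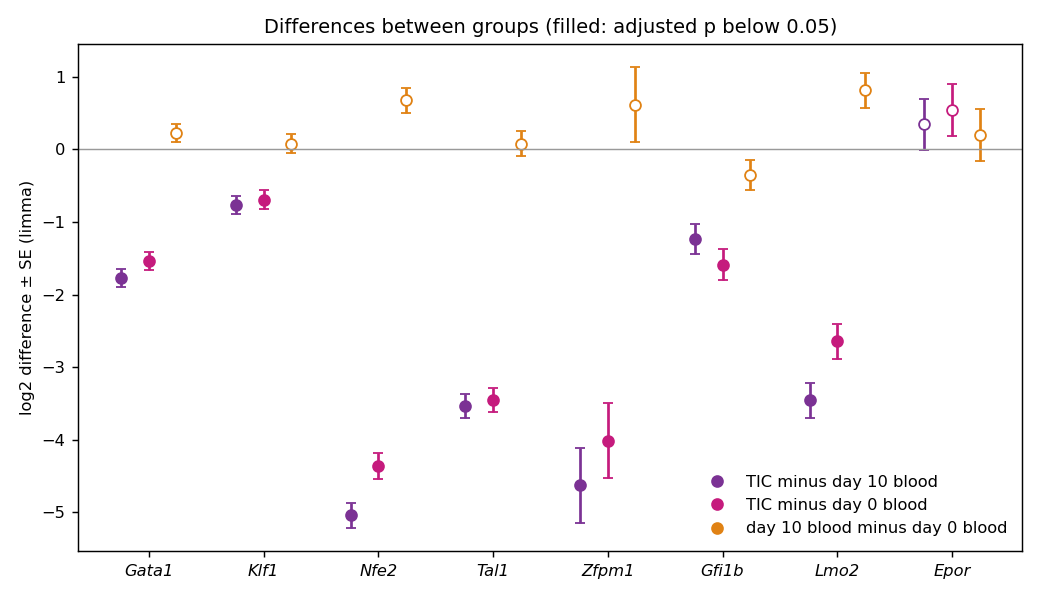
Log2 differences with their SE (vertical axis) for the 8 genes in the 3 comparisons, filled where the limma adjusted p was below 0.05. The TIC comparisons of 7 genes lie below 0 (with median centring Lmo2 lies above 0), from -0.69 for Klf1 to -5.04 for Nfe2, and no blood comparison is filled. The TIC points of Tal1 rest on signal not well above background.

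Before any scaling, the Cy5 signal put the groups in another order for some of these genes. Epor gave 1632, 113 and 575 intensity units above local background on the TIC arrays, against 8.42 to 11.1 on the day 10 blood arrays and 33.7, 15.1 and 11.1 on the day 0 blood arrays. Gata1 gave 35.8, 13.5 and 15.4 on the TIC arrays, against 11.0, 13.1 and 6.12 on the day 10 blood arrays and 48.8, 21.2 and 12.9 on the day 0 blood arrays. The TIC arrays were thus above day 10 blood for both genes before scaling, by a narrow margin for Gata1. For Tal1 they gave 8.28, 6.27 and 0.63, against 50.9, 51.1 and 19.7 on the day 10 arrays and 169, 116 and 43.1 on the day 0 arrays, so Tal1 was lowest in the TIC fraction before scaling as well. Lmo2 was between 31.8 and 254 on the TIC arrays, between 30.5 and 49.2 on the day 10 arrays and between 38.5 and 129 on the day 0 arrays, and these ranges overlapped.

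**Figure D3:**
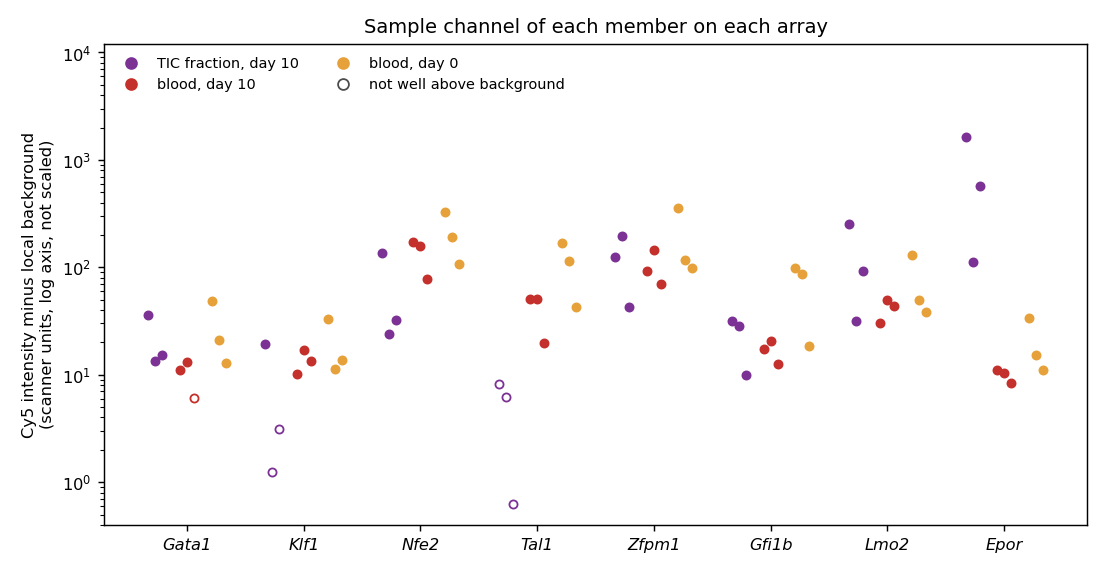
Cy5 intensity minus local background (vertical log axis, scanner units, not scaled between arrays) for each gene, with the TIC fraction left of day 10 blood and day 0 blood, and open points where the signal was not well above background. Tal1 lies lowest in the TIC fraction, at 0.63 to 8.28 units, whereas Epor lies highest there, at 113 to 1632 units.

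A change of scaling moved the median of all genes for the TIC fraction against day 10 blood from 0.07 to 0.40 with Cy5 alone at its 75th percentile, 0.85 with the deposited log ratio and 1.38 with median centring. Calls then split differently, since 51% of the calls were of higher genes after loess, 63.3% with the deposited log ratio and 95.7% with median centring. Against day 0 blood the median moved from 0.01 to 0.32, 0.36 and 1.16 in the same order of settings, and the share of calls that were higher was 48.5% after loess and 92% with median centring. Relative to the median of all genes, 7 of the 8 genes lay below it in both TIC comparisons with loess, with Cy5 alone and with median centring, and Epor lay above it. With the deposited log ratio all 8 lay below the median in the comparison with day 10 blood, since Epor at 0.59 was under 0.85. With median centring 4 of the 8 passed the test against day 10 blood, Klf1 (-0.43), Nfe2 (-1.01) and Tal1 (-1.18) lower and Epor higher. Gata1 (-0.025), Gfi1b (-0.12) and Zfpm1 (-0.26) did not. In that setting 10273 of all 14253 genes were called higher and 463 lower.

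**Figure D4:**
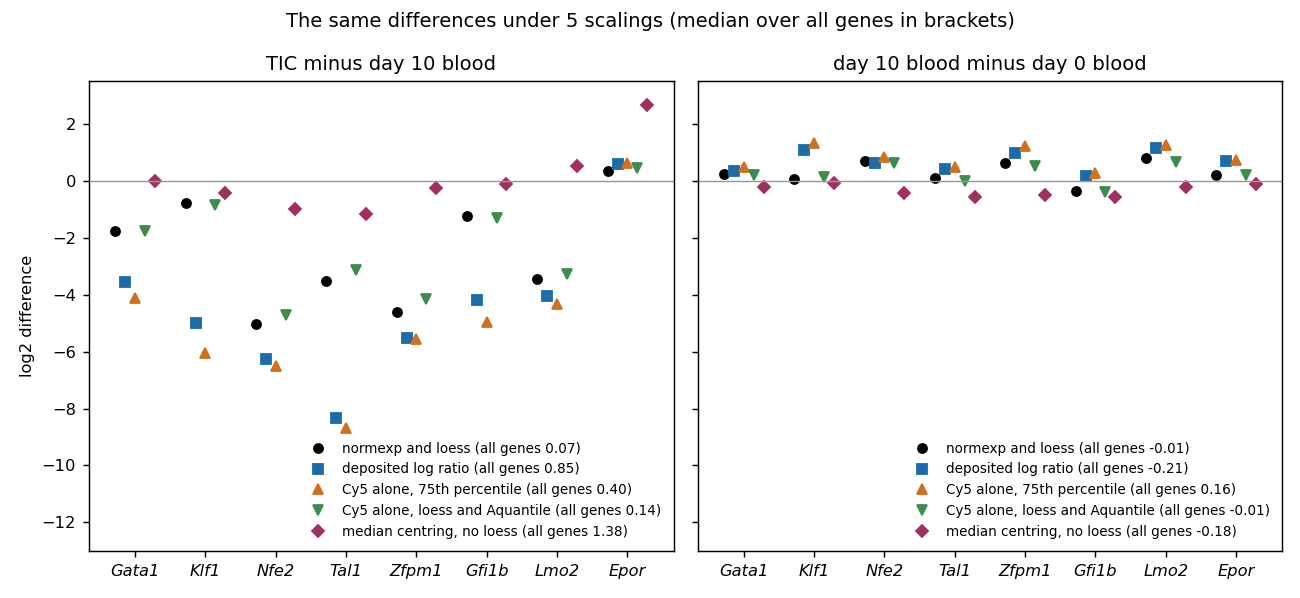
Log2 differences (vertical axis) of the 8 genes under 5 scalings, for the TIC fraction minus day 10 blood on the left and day 10 blood minus day 0 blood on the right, with the median over all genes in brackets in each legend. Left, 6 of 7 factors stay below 0 under every scaling drawn and Lmo2 reaches 0.50 with median centring; right, the points of 7 genes move below 0 with median centring.

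Day 10 blood was compared with day 0 blood of the same mice, taken before inoculation. None of the 8 genes passed the test, and neither did any of the 14253 genes (0% called by limma), although 2104 genes, 14.8%, had an unadjusted p under 0.05. The spread in this fit includes the TIC arrays: without the TIC array of mouse 833 1058 genes passed, without the day 0 array of mouse 834 18, and with mouse as a block 32. Nfe2 and Lmo2 had the smallest p of the 8. Nfe2 differed by 0.68 ± 0.17 between day 10 and day 0 blood (unadjusted p = 0.00405, limma adjusted p = 0.142), with 0.86, 0.76 and 0.41 in the 3 mice, and it passed the test without the TIC array of mouse 833 (adjusted p = 0.0458). For Lmo2 the difference was 0.81 ± 0.24 (unadjusted p = 0.00894, limma adjusted p = 0.191), with 0.41, 1.12 and 0.90 in the mice, and an adjusted p of 0.0906 with mouse as a block. An unadjusted p under 0.05 with a higher day 10 level was found for 8.7% of all genes.

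The remaining genes were closer to 0 or more variable. Gata1 differed by 0.23 ± 0.12 (limma adjusted p = 0.457) and Zfpm1 by 0.62 ± 0.52 (adjusted p = 0.700) between day 10 and day 0 blood, and the day 0 array of mouse 833 was the lowest of all blood arrays for both. Klf1, Tal1 and Epor had differences of 0.075 ± 0.13, 0.079 ± 0.17 and 0.20 ± 0.36, with both bloods overlapping. Counted over genes, 4 of the 8 (Gata1, Nfe2, Zfpm1 and Lmo2) were higher in day 10 blood with no overlap of the groups, against 15.7% of all genes, and 5 of the 8 were higher in all 3 mice, against 24.4% of all genes. With median centring 7 of the 8 differences turned below 0, from -0.093 for Klf1 to -0.57 for Tal1, while the median of all genes was then -0.18. Relative to that median only Klf1 and Epor lay above. On slide 3 alone, which holds all day 10 arrays and the day 0 array of mouse 834, Nfe2 differed by 0.68, Lmo2 by 0.56, Zfpm1 by 0.45 and Gfi1b by 0.20. On slide 2 alone, with 2 TIC and 2 day 0 arrays, the TIC fraction differed from day 0 blood by -1.46 for Gata1, -4.30 for Nfe2 and -2.55 for Lmo2. The TIC fraction and day 10 blood shared no slide.

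Transcripts of proteins that join these factors in complexes differed in both directions in the TIC fraction. For these and the lists that follow, 33.1% of all genes were called lower and 34.4% higher than in day 10 blood. Against day 0 blood the shares of all genes were 33.6% and 31.7%. Of 11 TAL1-LDB1 complex partners, 6 were lower and 3 higher than in day 10 blood (median -0.64), but with median centring 1 was lower and 8 higher (median 2.24). Ssbp2, which stabilises LDB1, differed by -5.45 ± 0.29 (limma adjusted p = 2.01e-06), Runx1 by -2.82 ± 0.20, the corepressor gene Cbfa2t3 by -2.79 ± 0.31 and Ssbp3 by -2.04 ± 0.27. Against day 0 blood 6 were lower and 2 higher, and among the lower was Lyl1, a close relative of Tal1, at -2.30 ± 0.20; with median centring 1 was lower and 7 higher. In day 10 blood Lyl1 differed from day 0 blood by -1.03 ± 0.20 (adjusted p = 0.0765), while Ssbp3 differed by 0.97 ± 0.27. These values are relative to reference blood and carry the shift of scaling given above.

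Among 8 small MAF partners, BACH factors and relatives of NFE2, 4 were lower and 2 higher in the TIC fraction than in day 10 blood, and with median centring none was lower and 6 were higher. Bach2, a repressor used in B cells, differed by -3.33 ± 0.18 and Nfe2l3 by -3.42 ± 0.23. Bach1, the haem-regulated repressor that competes with NF-E2, differed by -1.11 ± 0.20 (limma adjusted p = 0.00137). Maff, a small MAF protein, was higher in the TIC fraction (adjusted p = 0.000106) and cleared the background on 0 of 3 day 10 blood arrays, so it is given without a fold. Of 14 measured corepressors of FOG1 and GFI1B 4 were lower and 2 higher, against 33.1% and 34.4% of all genes, with a median of -0.27. With median centring none was lower and 13 were higher (median 2.32). Among the 4 lower was Rcor3, which cleared the background on 3 of 3 TIC arrays and 0 of 3 day 10 blood arrays. Mta3 of the NuRD complex differed by -1.97 ± 0.19, Gatad2a of the same complex by -0.99 ± 0.26 and the histone deacetylase gene Hdac1 by 1.08 ± 0.25, while Rbbp7 was higher (adjusted p = 0.0006) and cleared the background on 0 of 3 day 10 blood arrays.

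Other factors of the red lineage were lower in the TIC fraction for 6 of 10 genes against day 10 blood and for 7 of 10 against day 0 blood, with none higher; with median centring 1 was lower and 3 higher than in day 10 blood. Klf3, a repressor that KLF1 activates, differed by -3.11 ± 0.21 from day 10 blood, and Bcl11a, the repressor of fetal globin that B cells also express, by -2.41 ± 0.12. Sox6 was lower as well (limma adjusted p = 9.54e-06) and cleared the background on 0 of 3 TIC arrays. Ikzf1, which lymphocytes use widely, differed by -1.65 ± 0.18. It cleared the background on 2 of 3 TIC arrays and 1 of 3 day 10 blood arrays, so this size is uncertain. Of 10 factors of other blood lineages 4 were lower and 2 higher than in day 10 blood (1 lower and 6 higher with median centring), with Fli1, a megakaryocyte and lymphocyte factor, at -2.62 ± 0.18, Klf2 at -2.48 ± 0.40 and the B cell factor Pax5 at -0.83 ± 0.22. Ebf1, another B cell factor, cleared the background in Cy5 on 0 arrays of either group.

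Downstream of the receptor, 12 of 18 measured genes of Epo receptor signalling were lower and 4 higher in the TIC fraction than in day 10 blood (median -1.07), and 13 were lower and 4 higher than in day 0 blood, but with median centring none was lower in either comparison, and 13 were higher than in day 10 blood (median 1.61) and 9 higher than in day 0 blood (median 0.84). Bcl2l1, whose protein BCL-XL keeps late erythroblasts alive, differed by -5.63 ± 0.40 from day 10 blood (limma adjusted p = 6.29e-06) and by -4.14 ± 0.40 from day 0 blood. In day 10 blood it was 1.49 ± 0.40 above day 0 blood (adjusted p = 0.159). The phospholipase genes Plcg2 and Plcg1 differed by -3.43 ± 0.36 and -1.59 ± 0.13 between the TIC fraction and day 10 blood, and Sh2b3, an adaptor that restrains JAK2, by -2.15 ± 0.25. Ptpn6, the phosphatase SHP-1 that turns the receptor off, differed by -2.20 ± 0.19 between the TIC fraction and day 0 blood and by -0.90 ± 0.19 between the bloods (adjusted p = 0.0908).

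Genes that these factors are known to switch on were compared as a list of structural, haem and globin genes. All 24 measured erythroid target genes were lower in the TIC fraction than in day 10 blood, as were 33.1% of all genes. Their median was -5.41, against 0.07 over all genes. Against day 0 blood 22 of 24 were lower (median -3.94), as were 33.6% of all genes. With the deposited log ratio 22 were lower and 1 higher than in day 10 blood. Cpox cleared the background on 0 of 3 day 10 arrays and Pklr on 1, though both did on 3 of 3 TIC arrays. Epb42, Ermap, Rhag and Sptb cleared it on 0 of 3 TIC arrays and 3 of 3 day 10 arrays. The embryonic-type beta-like globin Hbb-y, whose probe may also read related globin genes (not checked), differed by -11.81 ± 0.24 from day 10 blood. Fech, the last enzyme of haem synthesis, differed by -11.16 ± 0.48, Epb41, a protein of the red cell skeleton, by -10.87 ± 0.47, and Slc4a1, the band 3 anion exchanger, by -9.64 ± 0.41. With median centring 16 of the 24 were lower and 4 higher than in day 10 blood, with a median of -0.99 against 1.38 over all genes. Between the bloods all 24 lay above 0, with a median of 1.02, against -0.01 over all genes and 0.22 over the 7 factors and Epor, and none passed the test (19 had an unadjusted p under 0.05); with median centring the median of the targets was -0.02. Other scalings called some of them higher in day 10 blood, 9 of the 24 with the deposited log ratio and with processed signals (median 1.35) and 3 with Cy5 alone at its 75th percentile (median 1.62).

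**Figure D5:**
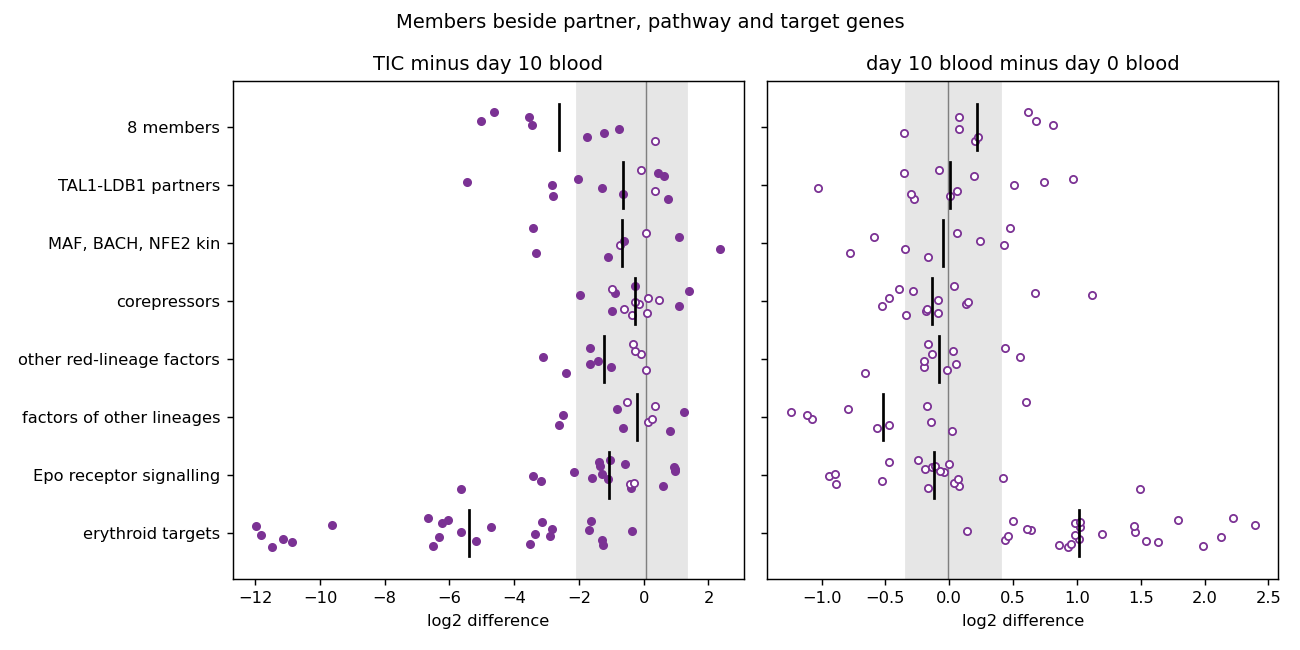
Log2 difference (horizontal axis) of every measured gene in 8 lists, for the TIC fraction minus day 10 blood on the left and day 10 blood minus day 0 blood on the right, filled where the limma adjusted p was below 0.05, with a bar at the median of the list. The grey band runs from the 10th to the 90th percentile of all genes and the grey line is their median; the targets reach medians of -5.41 and 1.02 after loess, and -0.99 and -0.02 with median centring.

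Markers of cells that share these factors were read on the same arrays, and their part in the results was not tested. Fewer cells of a type and less RNA per cell cannot be told apart in such bulk samples. Of 12 megakaryocyte and platelet markers, all were lower in the TIC fraction than in day 10 blood (median -6.27; with median centring 9 were lower and none higher), 6 to 9 were well above background on a TIC array against 12 on each blood array, and Gp1ba, Gp5 and Itga2b were not on any TIC array. Their summed Cy5 signal was 321 to 2404 units on the TIC arrays, 2933 to 7370 on the day 10 arrays and 3780 to 16086 on the day 0 arrays. Between the bloods 11 of these 12 lay above 0, with a median of 0.72, which turned to -0.35 with median centring. Among 5 tested mast cell and basophil markers 3 were lower than in day 10 blood and none higher (none lower and 3 higher with median centring), with 4 to 9 of 11 above background on a TIC array, 3 to 4 on a day 10 array and 2 to 6 on a day 0 array. The mast cell protease genes Cpa3 and Mcpt4 cleared the background on 3 of 3 TIC arrays and 0 of 3 day 10 arrays. Tpsab1, Tpsb2 and Fcer1a did so on 2 TIC arrays and 0 day 10 arrays. Kit, another gene of this list, cleared it on 0 of 9 arrays. Cma1 and Hdc cleared it on 3 of 3 arrays of every group and Prss34 on 1 TIC and 3 day 10 arrays. Mean ratios of Cma1, Hdc and Prss34 were -1.60, -1.01 and -0.69 in the TIC fraction, against 0.14, 1.62 and 0.24 in day 10 blood. Those of Mcpt4 and Ms4a2 were lower as well, while those of Cpa3, Tpsab1, Tpsb2, Fcer1a, Mcpt8 and Kit were higher. The summed signal of the list was 442 to 3406 units on the TIC arrays, 146 to 192 on the day 10 arrays and 155 to 434 on the day 0 arrays.

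Eosinophil markers had 1 of 4 tested genes higher in the TIC fraction than in day 10 blood, with summed signals of 230 to 1259 units on the TIC arrays, 17.8 to 36.9 on the day 10 arrays and 39.3 to 229 on the day 0 arrays. Prg2, which encodes major basic protein, and Siglecf, a surface lectin, cleared the background on 3 of 3 TIC arrays and 0 of 3 day 10 arrays. On the day 0 arrays Siglecf cleared it on 3 of 3 and Prg2 on 1. Ccr3 cleared it on 3 of 3 TIC and 3 of 3 day 10 arrays, with a mean ratio of 0.24 in both groups. Il5ra did so on 0 TIC, 0 day 10 and 2 day 0 arrays, and Epx, the eosinophil peroxidase, on 0 of 9 arrays. Of 8 tested endothelial markers, which mark cells that use Tal1 and Lmo2, 1 was higher and 2 lower than in day 10 blood (4 higher and none lower with median centring). Their summed signals, not scaled between arrays, were 501 to 2718 units on the TIC arrays, 45.5 to 49.3 on the day 10 arrays and 52.1 to 169 on the day 0 arrays. Cldn5, Egfl7, Emcn, Eng and Kdr were above background on 3 of 3 TIC arrays and 0 of 3 day 10 arrays, and Cdh5, Tek and Tie1 on 0 of 9. Esam was above it on 3 of 3 arrays of every group and Pecam1 on 2 of 3 in both. Mean ratios of Cldn5, Eng, Kdr and Pecam1 were -0.10, -0.34, -0.11 and -1.13 in the TIC fraction, against 0.05, -0.05, 0.06 and 0.11 in day 10 blood. Those of Egfl7 and Emcn were higher in the TIC fraction. More spots of all kinds cleared the background on TIC arrays. B cell markers were lower for 8 of 8 genes and neutrophil markers for 7 of 11, whereas 5 of 10 macrophage markers and 7 of 9 hepatoma and liver markers were higher (1 of the 9 was lower). With median centring 3 B cell markers and no neutrophil marker were lower, while 3 neutrophil, 10 macrophage and 7 hepatoma and liver markers were higher. Afp, alpha-fetoprotein, which hepatoma cells make, had a mean ratio of 5.49 in the TIC fraction and 0.14 in day 10 blood.

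By the smallest root mean square difference of centred ratios over the 9 arrays, the profiles most like each gene were found among all tested genes with a symbol. Nfe2 was closest to F13a1, which encodes a coagulation factor subunit of platelets and macrophages (0.157), Igtp (0.205) and the platelet glycoprotein gene Gp1ba (0.252). Tal1 was closest to the calcium pump gene Atp2a3 (0.104), to Gp5, another platelet glycoprotein (0.153), and to Slamf1 (0.171). Tal1, Gp5 and Gp1ba were well above background on 0 of 3 TIC arrays, so their TIC ratios in this measure rest on dim signal. Gata1 was closest to Micu2 (0.048), Olfr24 and Fam78a, Klf1 to Prrg4 (0.0646), Zmat4 and Olfr554, and Zfpm1 to the DNA methyltransferase gene Dnmt3a (0.248), Tspyl1 and Cux1. Gfi1b was closest to Cdk13 (0.116), Ammecr1 and Akap12, and Epor to Tstd3 (0.0844), Dynlt3 and Nat2. Osgin1 and Trpc4 were among the 3 profiles most like Lmo2. The TIC and blood arrays all enter this measure, so the gap between them weighs in it, and it is a description with no test.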

How the data were processed

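Per the labels, RNA of 9 samples in 3 groups of 3 was hybridised in Cy5 against reference blood RNA in Cy3. The authors deposited spot intensity with local background, processed signal and log10 ratios, made with Agilent Feature Extraction 10.5.1.1 per the file headers and 9.1.3.1 per the submitters' processing notes. From the deposited intensities, background was corrected by normexp (offset 50, spots with non-uniform local background set aside), and log2 ratios were normalized by loess within arrays. Probes were kept if Cy5 was well above background on 3 or more of 9 arrays, and the brightest probe stood for a gene. Groups were compared in limma 3.58.1 (R 4.3.3) with 1 mean per group fitted to the 9 arrays together, Benjamini-Hochberg adjusted, threshold 0.05. The fit was tested on simulated data.

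The genes and lists were chosen with earlier results of these data known. Beside the 8 genes, the text names up to 4 genes per list and comparison with the smallest p, and 3 profiles most like each gene, of which 1 is not reported here. Genes were named through a GRCm38.p6 RefSeq table, which also gave the promoters; probe positions are mm8, per the file headers. Mouse numbers in the labels mark the same animals, which pairs the samples: deviations from group means correlated at 0.19, 0.35 and 0.24 between the bloods of a mouse and at -0.06 to 0.06 between blood and TIC fraction. The number of arrays, 3 a group, limits the precision.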

Additional observations from a re-analysis of the deposited data

How the results depend on the processing

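In the TIC comparisons Nfe2 was lower and past the threshold in all 25 alternatives. Tal1 was so in the 24 that tested it, which leaves out the filter on all 9 arrays. Tal1 was well above background on 0 of 3 TIC arrays and met the filter through the blood arrays. Its calls thus all rest on the same dim TIC signal. Median centring without loess turned Lmo2 to 0.50 against day 10 blood and 0.29 against day 0 blood. It left 4 members called in the first comparison, where 10273 of all 14253 genes were called higher and 463 lower. Between the bloods it turned Gata1 to -0.22, Klf1 to -0.093, Nfe2 to -0.42, Tal1 to -0.57, Zfpm1 to -0.51, Lmo2 to -0.21 and Epor to -0.11. Gfi1b between the bloods turned to 0.17 with processed signals and with the deposited log ratio, 0.28 with Cy5 at its 75th percentile and 0.20 with slide as a term. Tal1 turned to -0.0035 with Cy5 after Aquantile and -0.048 without the day 10 array of mouse 832, and Klf1 to -0.038 without the day 0 array of mouse 833; over the arrays left out in turn Tal1 lay between -0.048 and 0.22 and Klf1 between -0.038 and 0.19. The cause was not tested.

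Genes called between the bloods, 0 in the analysis reported, numbered 763 with processed signals, 757 with the deposited log ratio, 16 with Cy5 at its 75th percentile, 147 where Cy5 was above background on all 9 arrays, 5 with a Cy3 filter, 12 with every probe tested, 15 with slide as a random block and 747 with only the compared groups in the fit. A filter on all 9 arrays, which tests only 3897 genes, left 2956 and 2910 of these called in the TIC comparisons, and 4 of 5 tested members in each. Slide as a term left 4274 calls against day 10 blood. With the replicate block of mouse as a fixed term 32 genes were called between the bloods, 5 with it as a random block, and it changed no call of the 8 genes. Leaving out one array gave 8326 to 10945 calls against day 10 blood, 8062 to 10798 against day 0 blood and 0 to 1058 between the bloods, with 7 to 8, 7 to 8 and 0 to 1 of the 8 genes called. Dim signal limits Tal1 and Klf1 in the TIC fraction, where 0 and 1 of 3 arrays were well above background, and Gata1 in day 10 blood, where 2 of 3 were.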
